A study of Mus musculus with 96 samples.

Results

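Of the 55487 genes in the count table of cultured horizontal basal cells (HBCs), 9 genes taken as surface markers of basal cells are described here: Icam1, Cd34, Ly6a, Ly6d, Ly6e, Cd44, Epcam, Psca and Cd9. They were chosen by name, with earlier results of these cells known, and they were read as the rows of the table that carry these symbols. A minimum of 10 counts, reached in 10% of the cells or more, was passed by all 9 and by 14463 genes in all.

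The cells came from wild-type mice of 6 to 8 weeks, whose olfactory epithelium was taken 2 days after an injection of methimazole, a drug that injures this epithelium. HBCs, its reserve stem cells, were grown in culture, and both daughter cells of 48 divisions were picked, so that the 96 cells form 48 sister pairs. RNA was read by G&T-seq, which copies transcripts with a poly(A) tail, and ERCC spike-in transcripts were added to every cell. All cells share this genotype, injury and culture, the labels name no mouse or culture for any of them, and the cells are therefore 1 sample: no p-values are given, and intervals cover counting error only.

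Surface markers are membrane proteins used to recognise and sort living cells. Icam1 is an adhesion receptor that binds integrins of leukocytes and is used to recognise HBCs, Cd44 binds hyaluronan, Epcam joins neighbouring epithelial cells, Cd34 is a sialomucin known from blood and hair follicle stem cells, and Cd9 is a tetraspanin that organises other membrane proteins. Ly6a (Sca-1), Ly6d, Ly6e and Psca belong to the LY6 family of small proteins held on the membrane by a lipid anchor. Only their RNA was measured, and nothing here gives the amount of protein on the surface.

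The libraries were deep and even, with 29454150 to 44849003 counts per cell on genes. The names of the deposited data place the cells in 12 sets of 8 cells, used here as possible batches. The HBC genes Trp63, Krt5 and Krt14 were counted in every cell, with median levels of 80.2, 2090 and 3672 TPM, a level scaled for transcript length and library size. Markers of other cells were near 0: the summed level of 9 haematopoietic genes ran from 0 to 21.0 TPM with a median of 0, that of 8 fibroblast genes from 0 to 18.1 TPM and that of 6 sustentacular genes from 0 to 28.1 TPM, also with medians of 0. Tyrobp, Cd3e, Dcn, Lum, Dpt, Ermn, Sult1c1 and Cyp1a2 had no count in any cell, and 0 of 96 cells, taken as under 3 cells, allows a share of up to 3.13% of cells with a count. The 8 endothelial genes summed to a median of 52.7 TPM with a range of 0 to 212 TPM, of which Egfl7 made 52.3 TPM at its median, while Cdh5 and Emcn had no count. Of 10 genes of globose basal cells and neurons Kit had no count and the summed level ran from 0 to 80.1 TPM, again with a median of 0. The 8 airway genes summed to a median of 529 TPM, the same as Tuba1a alone, and Scgb1a1, Muc5b and Muc5ac had no count. Cd34, Ly6a, Cd44 and Icam1 are also known from blood or vessel cells, and the part of Egfl7, with counts in 89 cells and a median close to that of Cd34, was not tested.

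The 9 genes differed widely in level. Ly6a had the highest median level, 2516 TPM, followed by Cd9 with 1789 TPM, Ly6e with 835 TPM, Epcam with 389 TPM, Cd44 with 119 TPM, Cd34 with 58.8 TPM, Icam1 with 23.3 TPM, Ly6d with 0.352 TPM and Psca with 0.344 TPM. This order held cell by cell in its upper part: Cd9 was above Ly6e in 94 of 96 cells, Ly6e above Epcam in 92 and Epcam above Cd44 in 89. Other neighbours overlapped, since Ly6a was above Cd9 in 67 cells, Cd44 above Cd34 in 66, Cd34 above Icam1 in 66 and Icam1 above Ly6d in 62, and Ly6d was above Psca in 36. Whether those neighbours differ was not tested. Cells at 0 TPM in both genes, which occur for Icam1 with Ly6d and for Ly6d with Psca, count for neither.

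**Figure D1:**
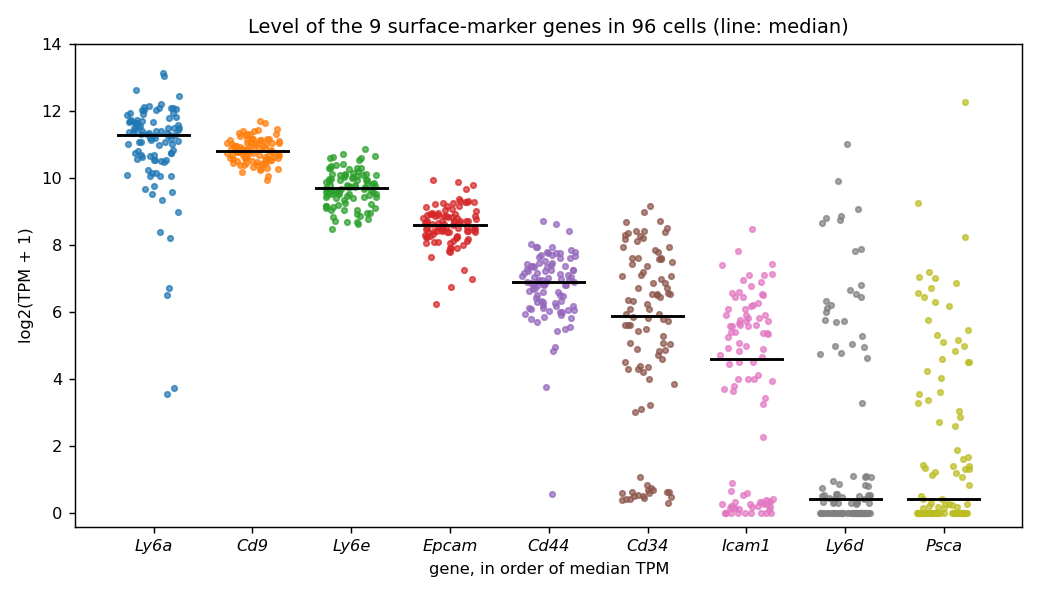
Level of each gene in 96 cells as log2(TPM + 1) on the vertical axis, with 1 point per cell, a black line at the median and the genes in order of median TPM. Cd9, Ly6e and Epcam form single bands, while the cells of Cd34, Icam1 and Ly6d split into a low and a high group with a gap between them.

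The genes also differed in how many cells carried them. Cd9, Ly6e, Epcam, Cd44, Ly6a and Cd34 had a count in all 96 cells, which is 6 of 9, whereas 31.8% of all genes tested did. All 6 are among the 10% of genes with the highest mean count, so this contrast also reflects abundance. At 1 TPM or more, 4 of the 9 were found in all cells. Icam1 had a count in 86 cells (89.6%, exact Clopper-Pearson 95% interval 81.7% to 94.9%), Psca in 59 (61.5%, 51.0% to 71.2%) and Ly6d in 58 (60.4%, 49.9% to 70.3%). Cd34, although counted in all cells, was near its floor in some of them, as described next.

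In Cd34, Icam1 and Ly6d a wide gap separated low from high cells. The gap was looked for after the values had been seen, as the widest step between neighbouring cells on log2(TPM + 1) with at least 5 cells on each side. No cell had a Cd34 level between 1.12 and 7.07 TPM: 19 cells lay below with 16 to 65 counts, and 77 lay above with at least 435 counts and a median of 91.9 TPM. No cell had an Icam1 level between 0.877 and 3.88 TPM: 34 cells lay below with 0 to 51 counts, and 62 lay above with at least 219 counts and a median of 47.8 TPM. For Ly6d the empty interval ran from 1.15 to 8.74 TPM, with 68 cells below and 28 above, the latter with a median of 76.2 TPM. The low cells were not confined to a batch, since those of Icam1 and Ly6d were found in all 12 library sets and those of Cd34 in 9. Psca had a narrower step, from 2.73 to 5.12 TPM, with 64 cells below and 32 above. In Cd9, Ly6e, Cd44 and Epcam the widest step measured 0.07, 0.12, 0.14 and 0.15 on the log2 scale.

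Low and high cells of Cd34 and of Icam1 were distributed differently over sister pairs. For Cd34, both daughters were high in 36 pairs and both low in 7, and 5 pairs were split. For Icam1, both were high in 20 pairs and both low in 6, and 22 pairs were split between a high and a low daughter. For Ly6d, 8 pairs were high in both daughters, 28 low in both and 12 split, and for Psca these numbers were 9, 25 and 14. Of these 3 outcomes, a split was the most frequent for Icam1 and the rarest for Cd34. The number of splits also depends on how many cells were high, 62 for Icam1 and 77 for Cd34. Whether it differed from that of unrelated cells was not tested, so the split counts alone do not give the likeness of sisters.

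**Figure D2:**
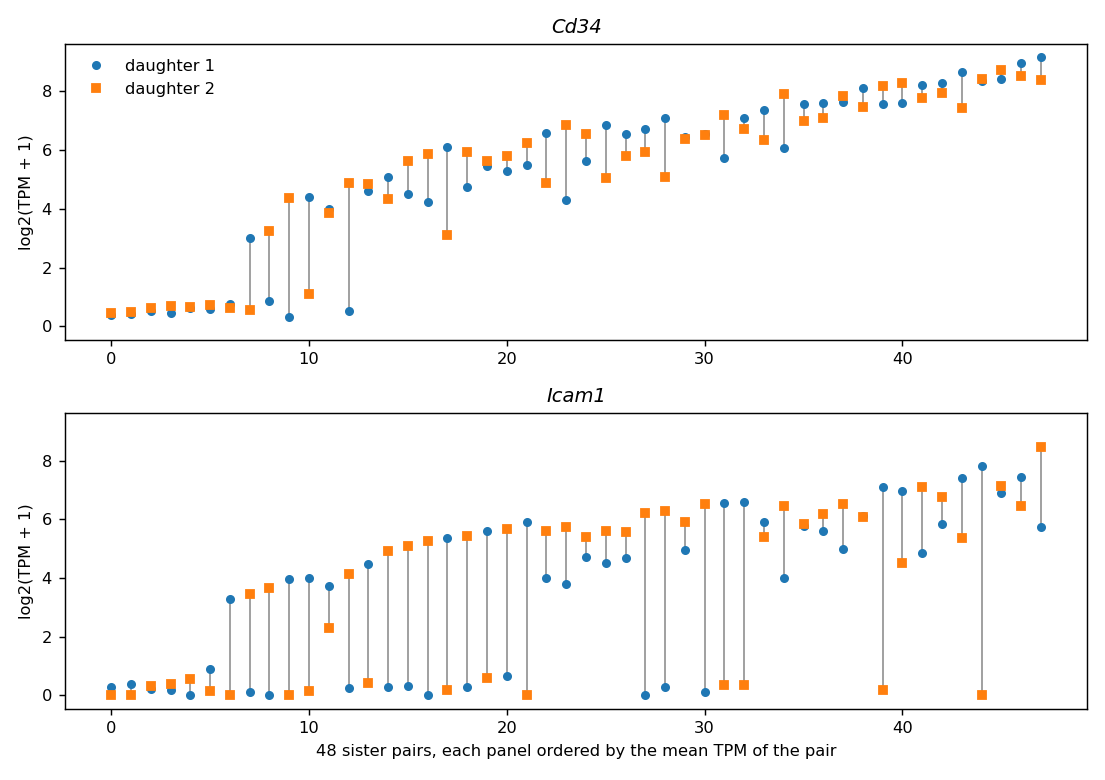
Level of Cd34 (top) and Icam1 (bottom) in both daughter cells of 48 pairs as log2(TPM + 1), circles for daughter 1 and squares for daughter 2, joined by a line and ordered by the mean TPM of the pair in each panel. Most Cd34 lines are short, with 5 pairs that cross the gap, and 22 Icam1 lines run from near 0 to a high level.

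Icam1 (ENSMUSG00000037405, chromosome 9 of GRCm38 from 21015985 to 21028817, forward strand) had counts from 0 to 19174 with a median of 1276.5. After scaling to the spike-in, the higher daughter had at least 1.5 times the value of the lower in 42 of 48 pairs (87.5%), and at least 10 times in 25 pairs. The median ratio between daughters was 13.9. In the pair with the largest ratio, pair 23, the daughters had 10741 counts and 0 counts, and the cell with the highest level, in pair 8, had 19174 counts while its sister had 2838. Little of its variation lay between pairs: the intraclass correlation, the share of the variance of log2(CPM + 1) that lies between pairs, was 0.077 (0.084 within library sets), where CPM is the count scaled to the total of the cell. Spike-in transcripts of 10 to 100 TPM, with spike-in scaling, had correlations of -0.16 to 0.36 with a median of 0.06. The part of measurement error in the low value of Icam1 was not tested. The integrins that bind it on leukocytes were at or near 0 in these cells: Itgal and Itgax had no count and Itgb2 and Itgam had counts in 2 cells and 1 cell.

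Cd34 (ENSMUSG00000016494, chromosome 1 from 194938819 to 194961279, forward strand) had counts from 16 to 32471 with a median of 3286. Its level ran from 0.243 TPM to 571 TPM, and the pair means ran from 0.331 TPM to 452 TPM, so that nearly the whole range between cells was also found between pairs. In the highest pair, pair 36, the daughters had 571 and 333 TPM, and in the lowest, pair 22, they had 0.310 and 0.353 TPM. Daughters differed by at least 1.5 times in 29 pairs (60.4%), with a median ratio of 1.64, but by at least 10 times in only 5. The intraclass correlation was 0.85 (0.86 within library sets) and 5 of 14463 genes had a higher one. These were Sostdc1, Eno1b, Gstm1, Sprr2a2 and Sprr2a1, named here after their values were seen, of which the Sprr2a genes are near-identical copies that may share reads. Of the sialomucin relatives of Cd34, Podxl had a median of 0 TPM and counts in 43 cells, Podxl2 had counts in 3 cells, and the selectin genes Selp and Sele had none.

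Cd34 and Icam1 lie at opposite ends of sister likeness among the 9 genes, and the 250 bases before their transcription starts are shown for this contrast. They come from RefSeq (GRCm38.p6), which gave a promoter for 5 of the 9 genes, and read 5′ to 3′ on the forward strand, chr1:194938571-194938820 for Cd34 and chr9:21015690-21015939 for Icam1. Capitals mark matches to a searched motif.
Cd34: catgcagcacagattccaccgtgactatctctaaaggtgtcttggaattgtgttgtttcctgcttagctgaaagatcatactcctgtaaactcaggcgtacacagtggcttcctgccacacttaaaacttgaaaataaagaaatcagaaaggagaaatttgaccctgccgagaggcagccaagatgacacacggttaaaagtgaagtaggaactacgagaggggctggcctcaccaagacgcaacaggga
Icam1: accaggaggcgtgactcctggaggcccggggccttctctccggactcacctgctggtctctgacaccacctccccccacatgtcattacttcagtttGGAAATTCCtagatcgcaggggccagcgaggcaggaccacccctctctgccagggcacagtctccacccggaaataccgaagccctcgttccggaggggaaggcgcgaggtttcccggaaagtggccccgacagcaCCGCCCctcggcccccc
The motifs were searched on both strands, as TATAAA for the TATA box, TGANTCA for AP-1, GGAANTTCC for NF-kB, GGGCGG for SP1/KLF factors and CAGCTG for the E-box. None of them occurred in the Cd34 window. The Icam1 window held GGAAATTCC at positions -153 to -145 from the start, a match that 0.813% of 32851 promoters have, and 1 GGGCGG on the reverse strand at -17 to -12, which 32.7% have. The Icam1 window had 15 CpG dinucleotides and 65.2% G and C, and the Cd34 window 6 CpG and 46.4%, with medians over all promoters of 6 and 52.4%. A match describes letters only, and no binding was measured.

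Cd44 (ENSMUSG00000005087, chromosome 2 from 102811141 to 102901665, reverse strand) had 71 to 44218 counts with a median of 11771.5, and levels from 0.497 to 424 TPM. A single cell, daughter 2 of pair 4, lay below 1 TPM, and without that pair the lowest level was 12.5 TPM. Daughters differed by at least 1.5 times in 23 pairs (47.9%), with a median ratio of 1.47 and an intraclass correlation of 0.42. Pair 8 was the highest pair, with 398 and 424 TPM. Of 15 genes listed with Cd44, among them ligands, enzymes and linkers of CD44 but also genes of other kinds, 12 passed the minimum. The most abundant were the syndecans Sdc4 (323 TPM) and Sdc1 (299 TPM), which are of those other kinds. The membrane linkers Ezr (212 TPM) and Msn (127 TPM) and the hyaluronidase Hyal2 (107 TPM) followed.

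Epcam (ENSMUSG00000045394, chromosome 17 from 87635979 to 87651129, forward strand) was among the steadier genes, with 2818 to 35688 counts and levels from 75.5 to 984 TPM. Daughters differed by at least 1.5 times in 13 pairs (27.1%), with a median ratio of 1.30 and never by 10 times. The intraclass correlation was 0.4999, just under the 0.5 used as a mark below. Without pair 10, the lowest pair with 152 and 108 TPM, it was 0.41, and without pair 8, whose daughters had 367 and 75.5 TPM, it was 0.57. All 9 genes for partners of EPCAM passed the minimum, among them the protease inhibitor gene Spint2 (404 TPM), the claudin gene Cldn7 (244 TPM), the E-cadherin gene Cdh1 (143 TPM) and Spint1 (133 TPM).

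Cd9 (ENSMUSG00000030342, chromosome 6 from 125460266 to 125494791, reverse strand) varied least. It had 25986 to 107110 counts with a median of 48110, and levels from 993 to 3365 TPM. Daughters differed by at least 1.5 times in 11 pairs (22.9%), by at least 2 times in 3 pairs, and the intraclass correlation was 0.37 (0.29 within library sets). A low correlation here goes with a narrow range over all cells, not with large differences between sisters. Of 17 tetraspanins and partners of CD9, 15 passed the minimum, led by Cd81 (541 TPM), Cd63 (465 TPM), and the integrin genes Itga6 (310 TPM), Itga3 (238 TPM) and Itgb1 (231 TPM), while Cd53, a leukocyte tetraspanin, had no count.

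The 4 LY6 family genes lie in 283193 bases of chromosome 15, from Psca to Ly6a, an interval with 24 genes of which 11 passed the minimum. Psca (ENSMUSG00000022598) spans 74714839 to 74717069, Ly6d (ENSMUSG00000034634) 74762056 to 74763620, Ly6e (ENSMUSG00000022587) 74955051 to 74959905 and Ly6a (ENSMUSG00000075602) 74994877 to 74998031, with Ly6d and Ly6a on the reverse strand. Neighbours within it differed widely in level. Ly6a and Ly6e were among the most abundant of the 9 genes and Ly6d and Psca at the bottom, and between these lay Lypd2, another LY6 family gene, with a median of 315 TPM, while Ly6k, Gml and Gml2 had no count.

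Ly6a had 201 to 191573 counts with a median of 49055, and levels from 10.8 to 8975 TPM. Daughters differed by at least 1.5 times in 18 pairs (37.5%), with a median ratio of 1.36. The intraclass correlation was 0.81 (0.81 within library sets) and 10 genes had a higher one. Pair 11 stood apart, with 10.8 and 12.3 TPM in its daughters, the lowest levels of all 96 cells, and the next lowest cell, in pair 21, had 90.2 TPM. Without pair 11 the correlation was 0.63, and without pair 4, whose daughters had 2194 and 104 TPM, it was 0.88.

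Pair 11 was low in other LY6 genes of the list too, though not to the same depth. Its daughters ranked 86th and 93rd of 96 in Ly6e (499 and 413 TPM), 83rd and 95th in Ly6c1 (55.8 and 3.33 TPM, median of all cells 500 TPM), and 89th and 93rd in Lypd2 (2.85 and 1.94 TPM). They were not low in all surface genes: they ranked 11th and 15th in Cd34 and 28th and 30th in Cd9. Daughter 2 was low in Cd44 (94th, 27.9 TPM) and Epcam (90th, 228 TPM), where daughter 1 ranked 58th and 55th. Neither daughter had a count of Ly6d or Psca, which had none in 38 and 37 of all cells.

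Ly6e had 9042 to 45443 counts with a median of 20662, and levels from 355 to 1857 TPM. It differed by at least 1.5 times in 12 pairs (25%), at most by 2.38 times, and its intraclass correlation was 0.58 (0.59 within library sets). Pair 29 was the highest in Ly6e, with 1596 and 1857 TPM, and also in Ly6a, with 6308 and 8975 TPM, in Epcam, with 949 and 878 TPM, and in Cd9, with 2557 and 3365 TPM, if pair means are ranked. Without it the correlation of Ly6e was 0.53 and that of Cd9 0.29, and without the whole library set of this pair, set 8, that of Ly6e was 0.45.

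Ly6d, a marker of stratified epithelia, had 0 to 42268 counts with a median of 7. At least 10 counts were found in 37 cells and at least 1 TPM in 32. Daughters differed by at least 1.5 times in 35 pairs (72.9%), many of them at a few counts: with a pseudocount of 100 in place of 1 the share was 39.6%. At 1 TPM, both daughters of 10 pairs, 1 daughter of 12 and neither of 26 carried Ly6d. The intraclass correlation was 0.51, with 560 genes above, but 0.44 without pair 42 and 0.62 without pair 4, and it ranged from 0.38 to 0.63 when each library set was left out. The highest cell was daughter 1 of pair 4, with 30.1% of the Ly6d level summed over cells, followed by daughter 1 of pair 42 with 14684 counts beside 7252 in its sister.

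Psca, first described as a prostate stem cell antigen, had 0 to 116061 counts with a median of 6.5 and reached 1 TPM in 45 cells. Both daughters did so in 13 pairs, 1 daughter in 19 and neither in 16. The ratio reached 1.5 in 34 pairs (70.8%; 45.8% with a pseudocount of 100), and the intraclass correlation was 0.54, or 0.47 without pair 4. A single cell, again daughter 1 of pair 4, held 67.7% of the summed level with 4887 TPM, and the second, in pair 46, had 616 TPM. At 1 TPM or more, 14 cells had both Ly6d and Psca, 18 only Ly6d, 31 only Psca and 33 neither. The Spearman rho of Ly6d and Psca over cells on CPM was 0.06. Whether their overlap differs from that of unrelated genes was not tested.

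Pair 4 had the largest ratio between daughters of all pairs in 4 of the 9 genes, Ly6a, Ly6d, Cd44 and Cd9. Daughter 1 had 42268 counts of Ly6d, 116061 of Psca, 54819 of Ly6a, 6700 of Icam1 and 4672 of Cd44, and daughter 2 had 0, 2859, 2488, 18 and 71. Cd34 was low in both (38 and 43 counts), and Ly6e and Epcam were somewhat higher in daughter 2 (1069 against 848 TPM and 643 against 404 TPM). Daughter 1 had the highest levels of all cells in the squamous genes Cnfn (24157 TPM, 2.53 TPM in its sister), Sbsn (1406 and 0.398 TPM), Sprr1a (10877 and 2193 TPM) and Krtdap (339 and 0 TPM). Krt10 (29.8 TPM) and Cstb (2444 TPM) were also at their highest there. Other squamous genes were not: Krt4 and Krt13 had no count in either daughter, and Sprr1b had 26.2 TPM in daughter 1. Ivl had 28.0 TPM in daughter 1 beside 48.2 TPM in daughter 2. Daughter 2 instead had the highest level of Sprr2a2 (59228 TPM, 5794 TPM in daughter 1) and the lowest of Krt5 (123 TPM) and Krt14 (16.2 TPM), against medians of 2090 and 3672 TPM, so that it did not carry the keratin level of the other HBCs. The wound keratins stood at opposite ends in this pair: Krt6a, Krt6b and Krt16 were at their highest in daughter 1 (12489, 1752 and 2168 TPM) and all 4 wound keratins were at their lowest in daughter 2 (15.4 TPM for Krt6a and 19.7 TPM for Krt17). Cycling genes were low in both daughters, with 0.455 and 0.473 TPM of Mki67 against a median of 72.1 TPM and 2.41 and 0.924 TPM of Top2a against 141 TPM. The genes of this pair outside the 9 were named after their values were seen. Daughter 1 had the highest total of all cells, 44849003 counts, beside 38588945 in daughter 2, and daughter 2 had the highest mitochondrial share of all cells, 3.84%, beside 2.00% in daughter 1. The part of depth and of this share in the differences was not tested.

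**Figure D3:**
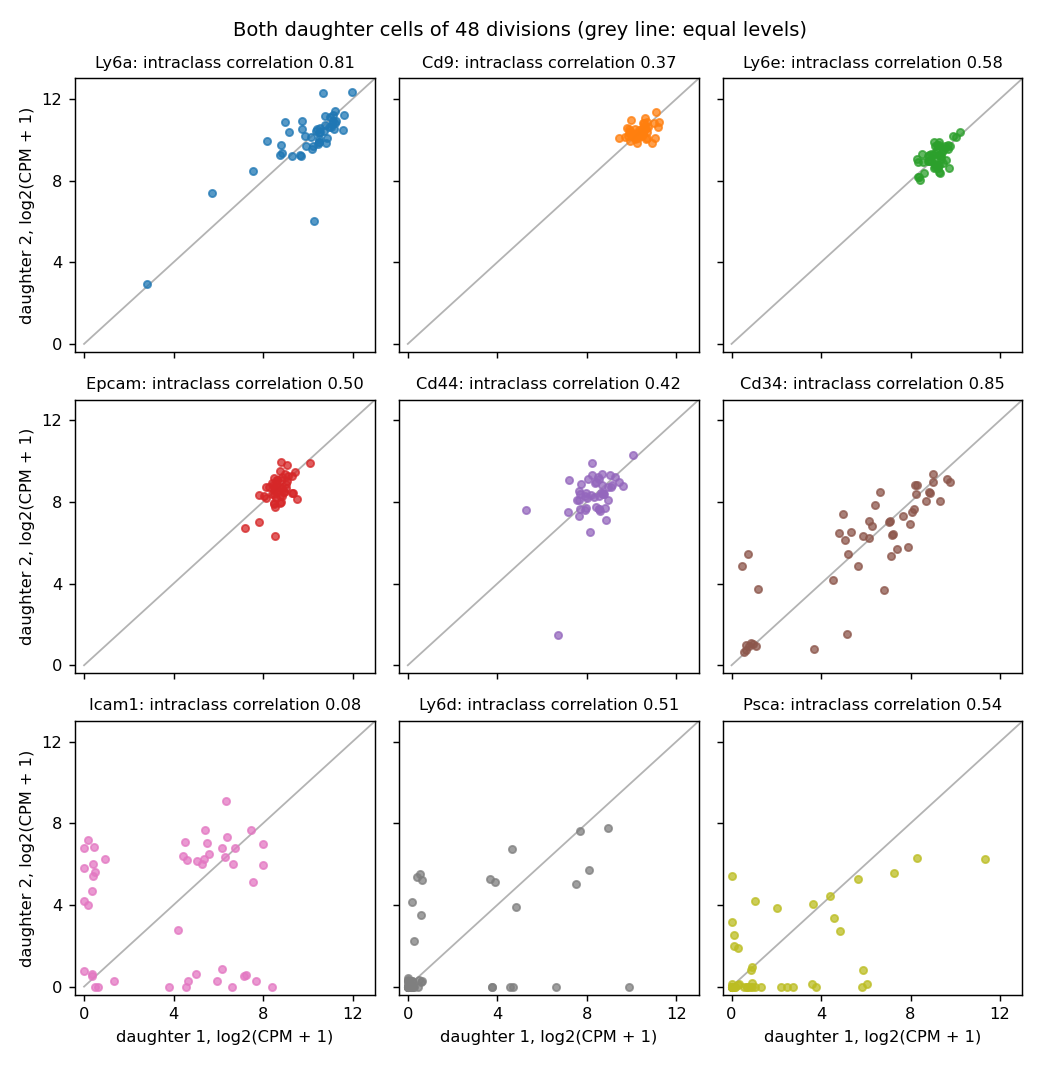
Level in daughter 2 against daughter 1 as log2(CPM + 1) for the 9 genes in 9 panels, with 1 point per pair and a grey line of equal levels. Cd34 spreads along the line, Cd9 and Ly6e are compact, and many Icam1 pairs lie along the axes with 1 daughter near 0.

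At least 24 of the 48 pairs differed by 1.5 times in 4 of the 9 genes (Icam1, Cd34, Ly6d and Psca), while 79.5% of all genes tested did so. The median over the 9 was 23 pairs and over all genes 33. The intraclass correlation reached 0.5 in 5 of the 9 (Cd34, Ly6a, Ly6d, Ly6e and Psca), while 4.4% of all genes did. Its median was 0.51 over the 9 genes and 0.11 over all. Both measures moved with abundance: Cd34, Ly6a, Ly6e, Cd44, Epcam and Cd9 are all among the 10% of genes with the highest mean count, where the median correlation was 0.28 and the median gene differed in 23 pairs. Among those genes, 99.7% of genes had a lower correlation than Cd34, 99.3% than Ly6a and 64.0% than Cd9. Among the 1446 genes in the same 10% class by mean count as Icam1, 38.4% had a lower correlation than Icam1 and 96.3% differed in fewer pairs. Since the 9 genes were chosen with these cells in view, the shares describe them and test nothing.

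**Figure D4:**
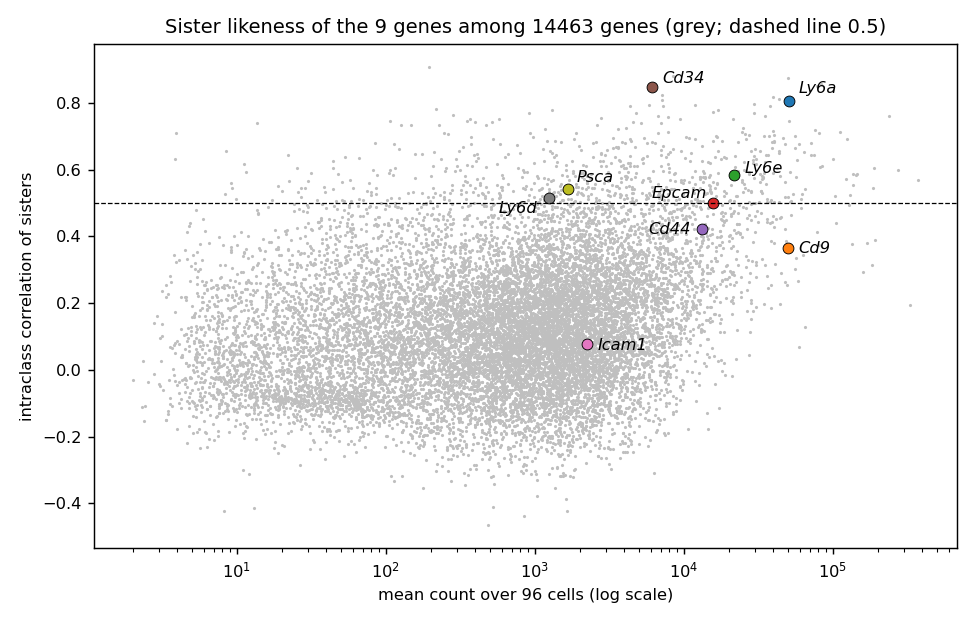
Intraclass correlation of sisters (vertical axis) against mean count on a log scale for 14463 genes (grey points), with the 9 genes in colour and a dashed line at 0.5. Cd34 and Ly6a lie at the upper edge of the cloud, Icam1 in its middle.

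Every cell received the same spike-in, so that its ratios between sisters give the scale of differences that are not of the cells. The 10 ERCC transcripts with a median of 10 to 100 TPM differed by at least 1.5 times in 32 to 40 pairs, the 12 with 100 to 1000 TPM in 7 to 29 pairs, and the 9 with 1000 TPM or more in 0 to 11 pairs. Icam1, at 23.3 TPM, lay just above the range of its level with 42 pairs (87.5%, exact 95% interval 74.8% to 95.3%), and Cd34, at 58.8 TPM, below it with 29. The interval of Icam1 reaches into that range. Moreover, 34 Icam1 cells were at or below 0.877 TPM. Spike-in transcripts of lower level, ERCC-00116, ERCC-00062 and ERCC-00051 at 8.16, 5.04 and 4.66 TPM, differed in 37, 40 and 42 pairs. Cd44, Epcam and Ly6e lay inside the range of theirs with 23, 13 and 12 pairs. Ly6a lay above the range with 18, and Cd9 at its upper end with 11, where the 11 came from a single transcript at 1032 TPM. The 3 transcripts at 2021 to 2236 TPM, nearest to the 1789 TPM of Cd9 from above, differed in 0 or 1 pair. The 22 ERCC transcripts counted in every cell also set the size factors, which narrows their own ratios. Between 10 and 100 TPM the intraclass correlation of spike-in transcripts ran from -0.16 to 0.36 with spike-in scaling. On CPM the 0.077 of Icam1 lay inside this range and the 0.85 of Cd34 above it.

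On CPM most of the 9 genes were only weakly related to each other, and whether they form a single programme was not tested. Of the 36 combinations, 22 had a positive Spearman rho over cells on CPM and 14 did not, with a median of 0.05. The single combination with a rho of at least 0.3 in size was Ly6a with Ly6e, which lie 34971 bases apart on chromosome 15 (rho 0.51, Pearson's r 0.39, rho 0.39 within library sets, 0.48 without the 2 cells farthest from the median of Ly6a, n = 96 cells). Their differences between sisters also moved together (rho 0.30, n = 48 pairs). Sister differences of Cd44 went with those of Cd9 (rho 0.42) and of Cd34 (rho 0.32), with rho over cells of 0.22 and 0.15. With spike-in scaling, which keeps the RNA content of a cell in its values, 32 of 36 combinations were positive and 6 reached 0.3. The median rho was then 0.19, so the weak relations depend on the scaling. Sisters share their pair and cells their library set, so these points are not independent.

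The genes most like each of the 9 were taken by rho over 96 cells among 14462 genes, and nothing is said of a shared function. How high the largest rho would be for unrelated genes was not tested. Over differences between sisters, rho was lower for every gene named here and in the next paragraph. It ran from 0.02 for Epcam with Alcam to 0.47 for Ly6a with Ly6a2. Cd34 was closest to Lgals1 (galectin-1, rho 0.49, 0.58 within sets), S100a4 (0.47) and Polr2b (0.45). Icam1 was closest to the kinase gene Plk2 (0.45, 0.40 within sets), the syndecan gene Sdc4 (0.44) and the ephrin receptor gene Epha2 (0.39). Cd44 was closest to S100a10 (0.51, 0.51 within sets) and the serpin genes Serpinb5 (0.49) and Serpinb2 (0.49). Epcam was closest to the adhesion gene Alcam (0.46, 0.44 within sets), the water channel gene Aqp4 (0.46) and the glutathione transferase gene Gstm1 (0.46).

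Psca was closest to the small heat shock gene Cryab (0.55, 0.52 within sets, 0.08 over sister differences), Gm9844 (0.49) and the claudin gene Cldn6 (0.48, 0.03 over sister differences). Ly6d was closest to Ecm1 (0.42, 0.23 within sets, 0.09 over sister differences), Tspan8 (0.41) and Zfp560 (0.39). Cd9 was closest to Anxa1 (0.51, 0.46 within sets), its pseudogene Cd9-ps (0.45) and Gltp (0.43). Ly6a was closest to Ly6i (0.62, 0.44 within sets), Ly6e and Ly6a2 (0.49), and Ly6e to Ly6a, mt-Nd4 (0.50) and mt-Nd5 (0.49). Ly6i and Ly6a2, with medians of 0.147 and 0.415 TPM, are close copies of Ly6a, as Cd9-ps is of Cd9, so that reads may have been divided among them and these values are uncertain. Ly6e also had a rho of 0.45 with the mitochondrial share of the counts, whose part in its relation to the mitochondrial genes was not tested.

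Against scores of 13 gene lists (mean of z-scored log2(CPM + 1)), 15 of 117 relations reached a rho of 0.3 in size. Cd44 was negatively related to the xenobiotic enzymes of olfactory and airway epithelium (rho -0.48, r -0.58, -0.52 within sets, -0.45 without the 2 farthest cells) and Epcam positively (rho 0.45, r 0.45, 0.44 within sets, 0.44 without the 2 farthest cells). With the wound keratins Krt6a, Krt6b, Krt16 and Krt17, Cd44 had a rho of 0.36 (0.34 within sets). For Epcam rho was -0.34 with the wound keratins and -0.31 with squamous differentiation on CPM, and 0.04 and 0.06 with spike-in scaling, a change of sign. Epcam also had a rho of 0.39 with the share of counts on ERCC and of -0.34 with the number of genes counted, and their part in its relations was not tested. The relation of Cd44 and of Epcam to the xenobiotic list kept its sign with spike-in scaling (rho -0.41 and 0.35).

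Psca was positively related to squamous differentiation genes (rho 0.40, r 0.57, 0.49 within sets, 0.36 without the 2 farthest cells) and had a rho of -0.32 with xenobiotic enzymes (-0.20 within sets). Ly6d, the other low LY6 gene, had a rho of 0.16 with squamous differentiation (r 0.37, 0.28 within sets, 0.16 without the 2 farthest cells). Ly6a and Ly6e had a rho of 0.40 and 0.46 with the remaining LY6 family genes (0.45 and 0.44 within sets), a list in which reads of close copies may be divided, and Cd44 had a rho of -0.32 with it, -0.06 with spike-in scaling. Ly6e, which interferon is known to induce, had a rho of 0.37 (0.37 within sets) with the 7 of 16 interferon-stimulated genes that passed the minimum. Of that list Ifitm3 had a median of 874 TPM, Ifi27 26.1 TPM and Bst2 15.7 TPM, while Ifit3 had no count. Isg15, Ifit1, Rsad2 and Mx1, named here after their values were seen, had counts in 2 cells each and are not in the score. Whether the score reflects a response to interferon was not tested.

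Icam1 is a known target of NF-kB. Its rho with 11 NF-kB target genes, led by Nfkbia with 262 TPM, was 0.25. With the 12 genes of the list made for CD44, which include the syndecan gene Sdc4, it was 0.35 (0.30 within sets). Its rho with the H3.3 genes H3f3a and H3f3b was -0.31 on CPM and 0.07 with spike-in scaling, a change of sign. Cd9 had a rho of -0.37 with 16 cycling genes on CPM (r -0.46, -0.30 within sets) and of 0.16 with spike-in scaling, and Ly6e of -0.30 with the wound keratins and of 0.15 with spike-in scaling, so that the sign of both depended on the scaling. Cd34 and Ly6d reached 0.3 with none of the 13 lists, and their largest rho in size were -0.26 (xenobiotic enzymes) and 0.16.

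**Figure D5:**
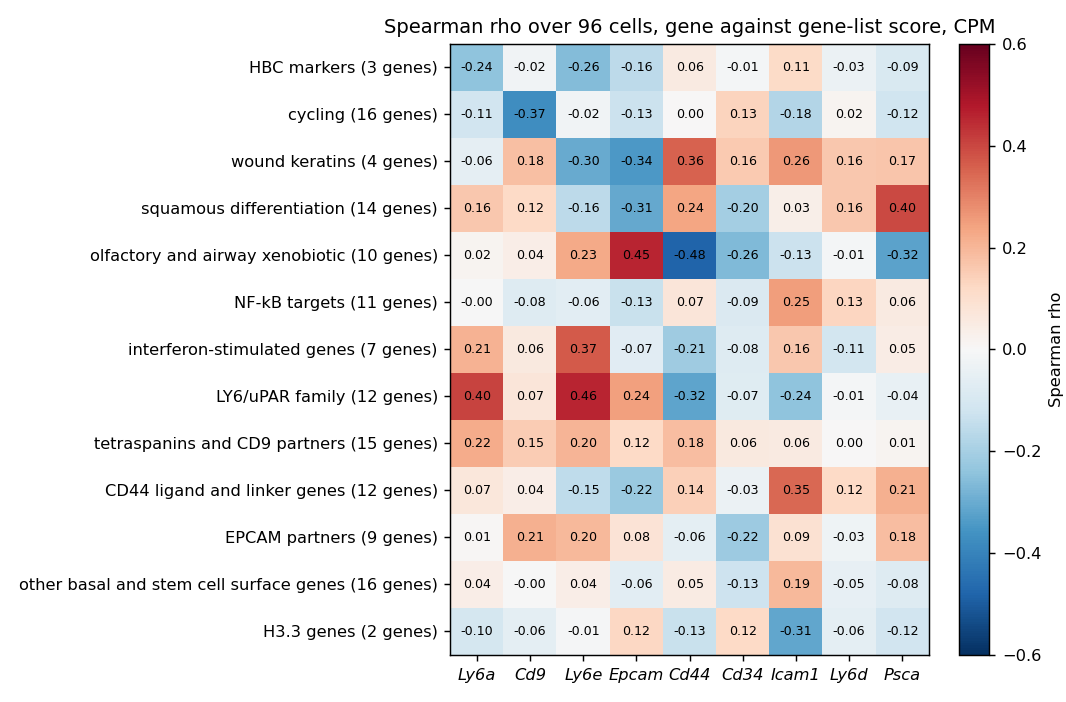
Spearman rho over 96 cells between log2(CPM + 1) of each gene (columns) and the score of each of 13 gene lists (rows, with the number of genes in the score), red for positive and blue for negative values. The strongest cells are Cd44 (-0.48) and Epcam (0.45) in the row of xenobiotic enzymes and Ly6e (0.46) in the row of the LY6 family.

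Sisters were also ordered by other genes, in order to see whether a surface gene lay on the same side. In the 35 pairs that differed by 1.5 times in Trp63, the daughter with more Trp63 had more Icam1 in 18 pairs, more Cd34 in 19, more Ly6a in 20 and more Cd9 in 19, and more Ly6e in 13. That daughter had more Cd44 and more Epcam in 17 each. Among pairs with unequal values, it had more Ly6d in 13 of 26 and more Psca in 12 of 29. The exact 95% interval of each of these shares contained 50%, from 21.5% to 55.1% for Ly6e to 39.4% to 73.7% for Ly6a. In the 28 pairs that differed in Mki67, a gene of dividing cells, the daughter with more Mki67 had more Ly6e in 19 (67.9%, 47.6% to 84.1%) with spike-in scaling and in 14 on CPM. It had more Psca in 8 of 23 unequal pairs (34.8%, 16.4% to 57.3%), and also in 8 on CPM. For Epcam the number was 16 with spike-in scaling and 9 on CPM. The interval of every gene contained 50% in this order too. In the 24 pairs that differed in H3f3a or H3f3b, the H3.3-high daughter had more Icam1 in 9 (37.5%, 18.8% to 59.4%), more Ly6e and Epcam in 15 each, more Cd34, Cd44 and Cd9 in 14 each and more Ly6a in 13. On CPM these numbers became 7 for Ly6a, 8 for Icam1, Ly6e and Epcam, 13 for Cd34, 12 for Cd44 and 10 for Cd9, so that the side taken by Ly6a, Ly6e, Epcam and Cd9 turned with the scaling. Over all genes the median share was 45.7% for Trp63 and 50% for Mki67 and for H3.3.

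Of the 35 other LY6/uPAR family genes, 12 passed the minimum. Ly6c1 (500 TPM), Lypd2 (315 TPM), the urokinase receptor gene Plaur (157 TPM), Lypd3 (95.1 TPM) and Lynx1 (18.8 TPM) had the highest medians, and Ly6f, Ly6g5c, Lypd1, Ly6l, Ly6k, Gml, Gml2 and Tex101 had no count. The intraclass correlation of sisters was 0.77 for Ly6c1, 0.71 for Lypd2, 0.43 for Lypd3 and 0.24 for Plaur. Of 22 other surface genes used for basal and stem cells, 16 passed, led by Itga6 (310 TPM), Sdc1 (299 TPM), Itgb4 (279 TPM), Itga3 (238 TPM) and Itgb1 (231 TPM), and 3 of them had an intraclass correlation of 0.5 or more. Lgr6 and Kit had no count in any cell. The integrins of the basement membrane thus had lower medians than Ly6a, Cd9 and Ly6e and higher ones than Cd44, Cd34 and Icam1.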

How the data were processed

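The authors trimmed reads with Trimmomatic 0.39, aligned them with STAR 2.7.11a to GRCm38 with ERCC sequences, and quantified genes with StringTie 2.2.1. The deposited values are a table of estimated counts, without normalization, and TPM per cell, also computed by the authors. Over 26 ERCC transcripts of the first cell, coverage times length divided by the estimated count was 75 bases, so that a deposited count is 75 aligned bases and not a read, and the number of reads behind it is unknown. The libraries carry no molecular identifiers and no strand, and 5 genes that overlap members on the opposite strand, each with a median TPM of 0, cannot be told apart from them.

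Ratios between daughters used counts divided by size factors (median of ratios over 22 ERCC transcripts counted in all cells, 0.378 to 1.89) and a pseudocount of 1. Intraclass correlations and Spearman rho used log2(CPM + 1) with Python 3.11.15, numpy 2.4.6, pandas 2.3.3, scipy 1.17.1 and matplotlib 3.10.9. Shares have exact Clopper-Pearson 95% intervals. The highest correlation between 2 of the cells was 0.733 on log2 counts, so no library was a copy of another. The calculations were tested on simulated data. The 9 genes, the lists and the tests were chosen with earlier results of these data known. Genes named are the 9, the 3 closest to each by rho, Trp63, Krt5, Krt14, Mki67, H3f3a and H3f3b, and up to 5 of the most abundant and those without counts in each list. Others are said to have been named after their values were seen. Some genes of the lists are not reported here.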

Additional observations from a re-analysis of the deposited data

How the results depend on the processing

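Counts of 10 or TPM of 1 as the minimum, and scaling by CPM, by the median of ratios over genes or by the ERCC total, left the number of genes counted in all cells and the number that differed in at least 24 pairs within 1.5 times of the values above. The number counted in all cells was 6, and 4 with a TPM of 1 as the minimum. The number that differed in at least 24 pairs was 4, and became 9 at the lower of the other ratios tried and 2 with a pseudocount of 100, which lowers the ratio of genes with few counts. It ranged from 4 to 5 when each library set was left out. The number with an intraclass correlation of 0.5 or more was 5, and became 3 on ranks, 3 without library set 8, and 3 when 10 counts were required in 48 cells, a minimum that Ly6d and Psca do not pass. Leaving out each set gave 3 to 6. Of all genes, 4.4% reached 0.5, with 6.90% on spike-in scaling, 2.61% among genes with any count, and 4.26% to 5.16% over the sets left out. Spike-in scaling raised the combinations of members with a rho of 0.3 or more in size from 1 to 6, and the relations to lists from 15 to 48, and the cause was not tested. The sets left out gave 1 and 11 to 15. Of the 15 relations, the only ones checked for this, 5 changed sign with spike-in scaling: Cd9 with cycling genes to 0.16, Ly6e with wound keratins to 0.15, Epcam with wound keratins to 0.038 and with squamous differentiation to 0.057, and Icam1 with the H3.3 genes to 0.073. Over differences between sisters on CPM, rho had the other sign for Cd44 with the LY6 family (0.25) and Cd9 with cycling genes (0.07). The same held for Epcam with wound keratins (0.06) and squamous differentiation (0.09), and for Ly6e with wound keratins (0.03). The others of the 15 kept their sign, with -0.20 for Cd44 and 0.30 for Epcam with xenobiotic enzymes. The alternatives without pair 4, without pair 11 and without each pair in turn were added after the data had been seen. No paired comparison of groups was possible because all cells belong to 1 group and replicate numbers join no groups. Comparisons within sister pairs are given above. Between 10 and 100 TPM the spike-in transcripts themselves differed by 1.5 times in 32 to 40 pairs, which limits what a ratio at that level can show. The ratios of Ly6d and Psca rest on few counts in most pairs.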
